A study of Mus musculus with 4 samples.

Results

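The genes described here are those whose RNA level set the hippocampus libraries of both single knockouts, Ogg1-/- (Ogg1 KO) and Mutyh-/- (Mutyh KO), apart from the libraries of both the double knockout, Ogg1-/- Mutyh-/- (DKO), and the wild type (WT). All mice were C57BL/6 and 6 months old, and each genotype has 1 library. The number of animals behind a library, their sex and the alleles' construction are not given in the sources used here. Genes were taken where the mean over the 4 libraries was at least 5 RPKM (reads scaled to gene length and library total), where the gene lies on an autosome, and where both single knockouts lay on the same side of both other libraries in log2(RPKM+1). Of 18492 genes listed in any library, 9026 passed the level and chromosome conditions and 3146 met the rule. Both single knockouts lay above DKO and WT for 1714 genes (19.0% of those compared) and below them for 1432 genes (15.9%). With the libraries scaled by DESeq2 size factors in place of their totals, the split became 1216 higher and 1920 lower, and with TMM factors 1353 higher and 1733 lower, so the balance of directions over all genes depends on the scaling.

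The contrast asks where loss of both glycosylases differs from what the losses of each would add up to. The Ogg1 protein cuts out oxidized guanine that faces cytosine in DNA, and the Mutyh protein cuts out adenine wrongly inserted opposite oxidized guanine. Both start base excision repair and so limit mutation. The choroid plexus, which recurs below, is a sheet of secretory epithelium in the brain ventricles, beside the hippocampus, that makes cerebrospinal fluid and is known for its very high Ttr RNA.

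Each genotype has 1 library and the libraries of a pair are different genotypes, so no test is made and every value below is a description of these 4 libraries. A comparison of 2 libraries with 2 could not give an exact two-sided permutation p under 0.333. The measures used are the difference of the pairs, which is the mean log2(RPKM+1) of the single knockouts minus that of DKO and WT, and the gap, which is the distance between the nearest libraries of the pairs. Most gaps were small, with a median of 0.048 among the higher genes and 0.044 among the lower ones on the log2 scale. A gap of at least 1.2-fold was reached by 71 higher genes (0.787% of those compared) and 8 lower genes (0.0886%). A gap of at least 1.5-fold was reached by 19 higher genes (0.211%) and 1 lower gene (0.0111%). Because these values chose the genes, the counts carry no evidence of their own. At the 1.2-fold limit, Cpt1a and Ifnar2 lay just inside with gaps of 0.27 each, and Pltp and Pcolce lay just outside with gaps of 0.26 each.

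The library totals were 17.02 M reads in Ogg1 KO, 17.15 M in Mutyh KO, 18.2 M in DKO and 18.12 M in WT. Hippocampal markers were present in all of them: Prox1, the transcription factor of dentate granule cells, had 16.6, 20.6, 19.7 and 18.4 RPKM in the same order. Mutyh itself had 15 and 20 reads in the Mutyh KO and DKO libraries, against 35 and 39 in Ogg1 KO and WT. Ogg1 had 130 and 103 reads in the Ogg1 KO and DKO libraries, against 81 and 94 in Mutyh KO and WT, so its read total goes against the label, whereas reads covered 47.2% and 46.4% of the gene's length in Ogg1 KO and DKO, against 81.5% and 86.7% in Mutyh KO and WT. Genotype names in what follows are therefore those of the labels, and Ogg1 KO and DKO mean the libraries labelled so. Xist, the RNA of the inactive X chromosome, had 10307 reads in Mutyh KO, against 23 in Ogg1 KO, 29 in DKO and 14 in WT. The Y-linked Ddx3y had 289 reads in Mutyh KO, against 724 in Ogg1 KO, 884 in DKO and 816 in WT. The single knockouts therefore differ from each other in these RNAs. Only autosomal genes entered the contrast, and whether autosomal levels differ with the sex of the animals was not tested.

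**Figure D1:**
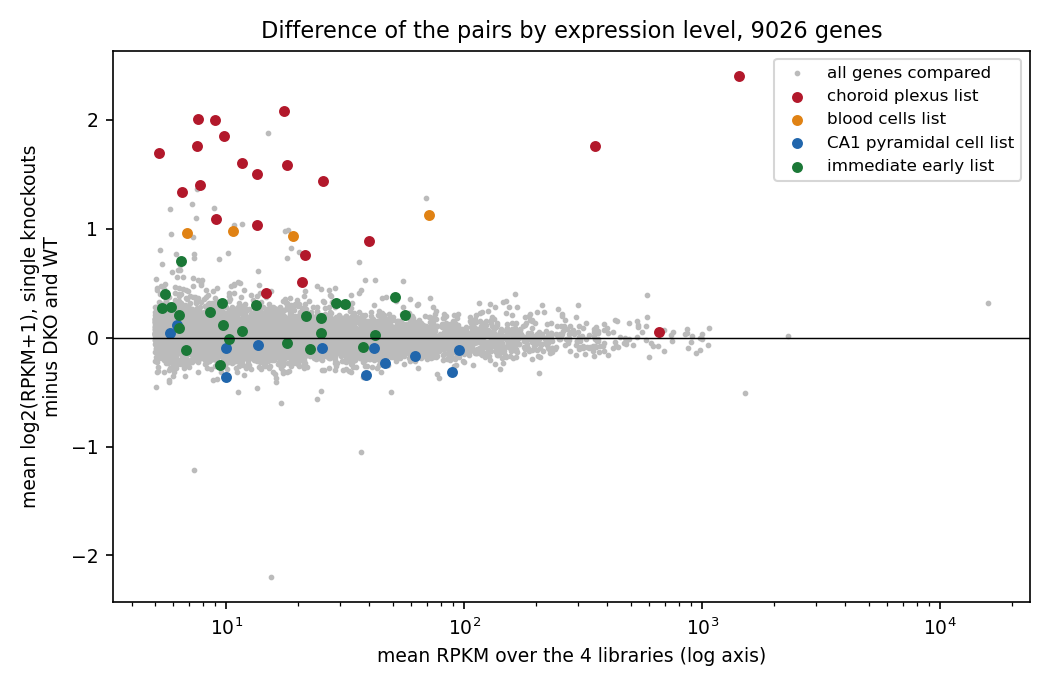
Difference of the pairs (Ogg1 KO and Mutyh KO minus DKO and WT, mean log2(RPKM+1), vertical axis) against mean RPKM over the 4 libraries (log axis) for the 9026 genes compared, 1 point per gene. Choroid plexus genes stand highest, while CA1 pyramidal cell genes sit mostly below 0 and immediate early genes mostly above it.

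The widest gaps above DKO and WT belonged to genes of choroid plexus epithelium. Of 21 genes compared from a list of choroid plexus markers, 19 were higher in both single knockouts (19.0% of all genes compared), none was lower, and 16 had a gap of at least 1.2-fold (0.787% of all). The list was chosen with earlier results of these data known, so these counts are not independent support. The list's median difference of the pairs was 1.5 on the log2 scale, against 0.008 over all genes compared. Summed over all of its listed genes, those outside the comparison included, its level was 3873 RPKM in Ogg1 KO and 3740 in Mutyh KO, against 2271 in DKO and 982 in WT. The list took 0.749% of reads in Ogg1 KO and 0.748% in Mutyh KO, against 0.47% in DKO and 0.239% in WT. Atp1b1, a listed gene that neurons also express, gave 730 RPKM of the sum in Ogg1 KO and 612 in Mutyh KO. It gave 639 RPKM in DKO and 647 in WT, so most of the WT level came from this gene. Both single knockouts thus lay close together, WT lay lowest and DKO lay between. In RNA of whole tissue, more cells of a type and more RNA per cell cannot be told apart, and how much choroid plexus each dissection held was not tested.

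Ttr, the thyroid hormone carrier that choroid plexus secretes into cerebrospinal fluid, was the most abundant of these genes, with 2274 RPKM in Ogg1 KO and 2169 in Mutyh KO, against 1105 in DKO and 158 in WT. Its difference of the pairs was 2.41, which is an interaction (DKO minus both single knockouts plus WT) of -4.81 on the log2 scale. Mutyh KO, the lower of the single knockouts, exceeded DKO 1.96-fold in reads per library total, with an exact 95% interval of 1.93 to 1.99 for counting error only. Enpp2, the secreted lysophospholipase D autotaxin, had 512 RPKM in Ogg1 KO and 538 in Mutyh KO, against 290 in DKO and 81.7 in WT. Sostdc1, a secreted antagonist of BMP and Wnt signalling, had 18.2 RPKM in Ogg1 KO and 17.1 in Mutyh KO, against 8.69 in DKO and 2.87 in WT. The rule fixed the order of the pairs for these secreted products. It did not fix the order of DKO and WT, and in all of them DKO lay above WT.

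The gene with the widest gap of all was among the ion channels and transporters of the epithelium. Kcne2, a beta subunit of potassium channels, had 12.9 RPKM in Ogg1 KO and 12.1 in Mutyh KO, against 4.51 in DKO and 1.03 in WT, with a gap of 1.25. Mutyh KO exceeded DKO 2.69-fold in reads, with a counting interval of 2.21 to 3.3. Kcnj13, the inward rectifier Kir7.1, had 24.2 RPKM in Ogg1 KO and 29.8 in Mutyh KO, against 14.2 in DKO and 1.84 in WT. Both channel genes were well apart from WT, where Kcne2 rested on 32 reads and Kcnj13 on 45. Slc4a5, a sodium bicarbonate cotransporter of the apical membrane, had 7.04 RPKM in Ogg1 KO and 9.29 in Mutyh KO, against 3.89 in DKO and 0.601 in WT. Clic6, a chloride intracellular channel protein, had 18.5 RPKM in Ogg1 KO and 21.6 in Mutyh KO, against 10.1 in DKO and 3.91 in WT. Slc4a2, an anion exchanger that was in no list, had 23.4 RPKM in Ogg1 KO and 23.8 in Mutyh KO, against 14.7 in DKO and 8.94 in WT. In these 5 genes too the order of the pairs was fixed by the rule, and DKO lay above WT.

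Receptors and further markers of the epithelium also met the rule, and DKO lay above WT in each of those named here. Kl, which encodes the FGF co-receptor klotho, had 32.8 RPKM in Ogg1 KO and 40.9 in Mutyh KO, against 19.5 in DKO and 8.42 in WT. Folr1, the folate receptor that carries folate into cerebrospinal fluid, had 13.6 RPKM in Ogg1 KO and 16.4 in Mutyh KO, against 8.05 in DKO and 1.14 in WT. Prlr, the prolactin receptor, had 9.04 RPKM in Ogg1 KO and 20.8 in Mutyh KO, against 4.49 in DKO and 1.49 in WT. Prlr was the listed gene in which the single knockouts differed most from each other, with Mutyh KO 2.3 times Ogg1 KO. F5, coagulation factor V, had 9.84 RPKM in Ogg1 KO and 13.4 in Mutyh KO, against 5.78 in DKO and 0.999 in WT. Calml4, a calmodulin-like protein, had 10.9 RPKM in Ogg1 KO and 12.2 in Mutyh KO, against 5.87 in DKO and 2.24 in WT.

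The regulator Otx2 and the enzyme Ace met the rule as well, again with DKO above WT. Their promoters are shown because Otx2 is a regulator in the group and both windows hold the motif that Otx-type homeodomains bind. Otx2, the homeodomain transcription factor that maintains choroid plexus identity, had 8.69 RPKM in Ogg1 KO and 10.6 in Mutyh KO, against 4.59 in DKO and 2.16 in WT. Ace, the angiotensin-converting peptidase, had 24.2 RPKM in Ogg1 KO and 29 in Mutyh KO, against 14.2 in DKO and 4.51 in WT. The sequences are RefSeq promoters of build GRCm38.p6, 250 bases before to 50 bases after the start of the gene, at chr11:105967698-105967997 on the plus strand and chr14:48665060-48665359 on the minus strand; capitals mark TAATCC or its reverse complement GGATTA, which begins 27 bases before the start in Ace and 211 bases before it in Otx2.
Ace: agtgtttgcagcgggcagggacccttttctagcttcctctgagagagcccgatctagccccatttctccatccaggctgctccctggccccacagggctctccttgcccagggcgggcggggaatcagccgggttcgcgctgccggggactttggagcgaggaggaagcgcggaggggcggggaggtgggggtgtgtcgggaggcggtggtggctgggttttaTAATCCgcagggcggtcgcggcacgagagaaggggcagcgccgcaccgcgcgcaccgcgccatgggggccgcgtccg
Otx2: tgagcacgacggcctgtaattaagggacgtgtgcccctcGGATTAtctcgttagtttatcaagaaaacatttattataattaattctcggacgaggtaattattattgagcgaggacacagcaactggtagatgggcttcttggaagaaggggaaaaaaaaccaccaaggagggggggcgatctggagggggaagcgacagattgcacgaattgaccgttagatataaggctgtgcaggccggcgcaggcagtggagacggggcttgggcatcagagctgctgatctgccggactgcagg
Searched on both strands, the motif was in 2 of the 19 choroid plexus list promoters found in the table (10.5%), in 9 of 56 promoters of higher genes with a gap of at least 1.2-fold (16.1%) and in 486 of 7256 promoters of the genes compared (6.7%). A match describes letters in the window and is not a binding site.

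The remaining listed genes show where the group ends. Lbp, a lipopolysaccharide binding protein, and Slco1c1, a thyroid hormone transporter, passed the 1.2-fold gap with smaller gaps of 0.46 and 0.35. Slc12a2, Igfbp2 and Trpm3 were higher in both single knockouts with gaps below 1.2-fold. Igfbp2, a secreted binding protein of insulin-like growth factors, had 47.6 RPKM in Ogg1 KO and 53.5 in Mutyh KO, against 41.2 in DKO and 17.3 in WT. Slc13a4, a sulfate transporter, had 14.6 RPKM in Ogg1 KO and 20.5 in Mutyh KO, against 15.1 in DKO and 3.92 in WT, so DKO lay between the single knockouts. Atp1b1, a sodium pump subunit that neurons also express, had 730 RPKM in Ogg1 KO and 612 in Mutyh KO, against 639 in DKO and 647 in WT. Its pairs overlapped. Among 5 listed genes that the level or chromosome condition left out, Aqp1, the water channel, had 6.04 RPKM in Ogg1 KO and 6.4 in Mutyh KO, against 3.21 in DKO and 0.56 in WT. The tight junction gene Cldn2, on the X chromosome, had 8.09 RPKM in Ogg1 KO and 8.51 in Mutyh KO, against 4.26 in DKO and 0.609 in WT. Wfdc2 and Steap1 also had both single knockouts above both others, at low levels in every library, and for Tmem72 Mutyh KO lay under DKO at 4.11 against 4.25 RPKM.

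**Figure D2:**
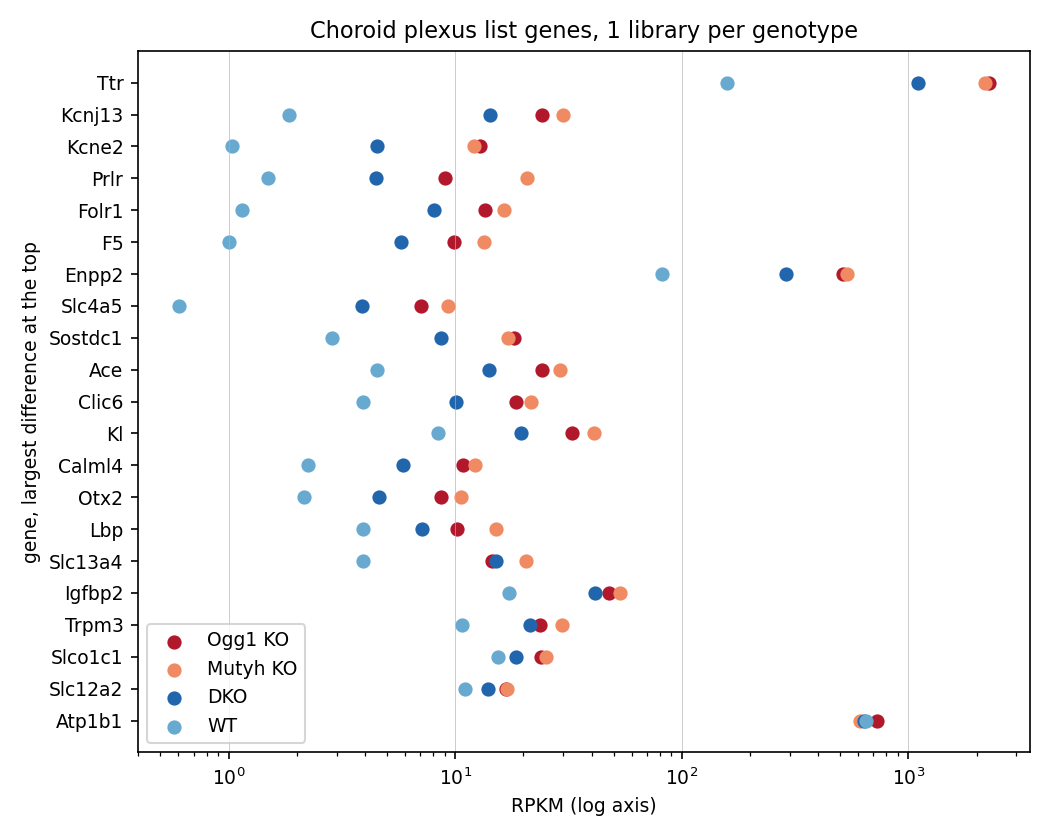
RPKM (log axis) of the 21 choroid plexus list genes compared, 1 point per library and gene. For 19 genes both single knockouts lie right of DKO and WT; for Slc13a4 and Atp1b1 they overlap.

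Of the 71 higher genes with a gap of at least 1.2-fold, 55 were outside the choroid plexus list and 47 were in no list. WT was the lowest library for 64 of the 71 and DKO for 7. The genes outside the list that are named in the rest of this paragraph were chosen after their values were seen. Besides Slc4a2, the genes with a gap of at least 1.5-fold outside the list were 1500015O10Rik, Spint2, Car12 and Rdh5. Spint2, a membrane-bound inhibitor of serine proteases, had 25.3 RPKM in Ogg1 KO and 23.5 in Mutyh KO, against 14.8 in DKO and 9.34 in WT. Car12, a membrane carbonic anhydrase, had 26.3 RPKM in Ogg1 KO and 25.2 in Mutyh KO, against 16.2 in DKO and 12.9 in WT. Rdh5, a retinol dehydrogenase, had 8.24 RPKM in Ogg1 KO and 14.2 in Mutyh KO, against 5.14 in DKO and 2.45 in WT. All of these had WT as the lowest library, as the choroid plexus genes did. A second carbonic anhydrase, Car14, had 9.54 RPKM in Ogg1 KO and 9.12 in Mutyh KO, against 5.92 in DKO and 4.62 in WT. Slc31a1, the copper importer, had 13 RPKM in both Ogg1 KO and Mutyh KO, against 8.58 in DKO and 5.97 in WT. Igf2, an imprinted growth factor made by choroid plexus and meninges, had 79 RPKM in Ogg1 KO and 114 in Mutyh KO, against 59.7 in DKO and 24.6 in WT. The WT level relative to the mean of the single knockouts had a median of 0.159 over the 16 choroid plexus genes and 0.621 over the other 55, so the others were apart by smaller folds.

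By the deposited annotation terms, 10 of these 71 genes (14.1%) carried the term for the extracellular region, against 2.04% of all genes compared. The term integral to membrane was carried by 11 (15.5%), against 4.04%. The more common term intrinsic to membrane was carried by 15 (21.1%), against 15.4%. Other terms went the other way. Intracellular membrane-bounded organelle was carried by 15 (21.1%), against 27.4%, and transition metal ion binding by 5 (7.04%), against 9.83%. No rule set in advance chose the terms named here. The 71 genes were less expressed than all genes compared, with a median of 9.15 RPKM against 15.8 RPKM, and their listed length had a median of 1952 bases against 2948 bases. On chromosome 7 lay 11 of them (15.5%), against 7.68% of all genes compared. In 65 of the 71 the counting interval of the read ratio between the nearest libraries excluded 1.

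Blood, ependymal and meningeal markers were measured beside them. All 4 blood genes compared were higher in both single knockouts (19.0% of all genes compared) and 3 had a gap of at least 1.2-fold (0.787%); those named were chosen after their values were seen. Beta-s, an adult beta globin, had 73.8 RPKM in Ogg1 KO and 123 in Mutyh KO, against 53 in DKO and 35.2 in WT. Hba-a1, an alpha globin, had 19.7 RPKM in Ogg1 KO and 31.5 in Mutyh KO, against 14.9 in DKO and 10.6 in WT. Globin copies are near identical in sequence, so the split of reads between Beta-s and Hbb-b1 and between Hba-a1 and Hba-a2 is uncertain, while the list's sum was 114 RPKM in Ogg1 KO and 193 in Mutyh KO, against 86.3 in DKO and 57.4 in WT. Of the myeloid markers S100a8, S100a9, Ngp and Camp, none exceeded 13 reads in any library. Among ependymal and motile cilia genes, 2 of 5 compared were higher (19.0% of all) and 1, Rsph1, passed the 1.2-fold gap (0.787%). Rsph1, a radial spoke protein of cilia, had 6.66 RPKM in Ogg1 KO and 9.62 in Mutyh KO, against 4.67 in DKO and 4.69 in WT. Foxj1, the transcription factor of motile cilia, had 9.06 RPKM in Ogg1 KO and 11.4 in Mutyh KO, against 6.89 in DKO and 7.71 in WT. In these 2 genes DKO was at or below WT, while the sum over the listed ependymal genes was 59.5 RPKM in Ogg1 KO and 80.0 in Mutyh KO, against 50.7 in DKO and 47.7 in WT. The ependymal list's median difference of 0.375 turned to -0.058 without the Mutyh KO library.

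Meningeal fibroblast genes did not take this order. Igf2 was the only one of 11 compared that was higher in both single knockouts (19.0% of all genes compared). The list's sum was 224 RPKM in Ogg1 KO and 286 in Mutyh KO, against 260 in DKO and 142 in WT. Gjb2, a gap junction protein, had 5.5 RPKM in Ogg1 KO and 5.85 in Mutyh KO, against 9.12 in DKO and 4.02 in WT. Fmod, a small proteoglycan of matrix, had 10.7 RPKM in Ogg1 KO and 12 in Mutyh KO, against 15.3 in DKO and 5.93 in WT. For both genes DKO was the highest library, so the meningeal genes apart from Igf2 did not sort with the single knockouts; Gjb2 and Fmod were chosen after their values were seen. Endothelial genes were higher in 2 of 10 and pericyte and smooth muscle genes in 1 of 8, near the 19.0% of all genes compared.

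Myelin genes leaned the same way by small margins. Of 15 oligodendrocyte genes compared, 7 were higher in both single knockouts (19.0% of all genes compared) and none was lower (15.9%), with no gap of 1.2-fold and a median difference of 0.108; with DESeq2 size factors 5 were higher. Mbp, myelin basic protein, had 619 RPKM in Ogg1 KO and 633 in Mutyh KO, against 539 in DKO and 562 in WT. Cldn11, the tight junction protein of myelin, had 65.7 RPKM in Ogg1 KO and 63.9 in Mutyh KO, against 57.4 in DKO and 56.5 in WT. Mog, a myelin surface glycoprotein, had 27.3 RPKM in Ogg1 KO and 29.9 in Mutyh KO, against 25 in DKO and 22.1 in WT. These 3 did not overlap between the pairs, but Mobp, Cnp, Ermn and Trf did. Among 17 astrocyte genes, 2 were higher (19.0% of all genes compared) and 3 lower (15.9%). Slc7a10, an astrocyte transporter of small neutral amino acids, stood out from them with 24.5 RPKM in Ogg1 KO and 25.2 in Mutyh KO, against 17.7 in DKO and 18.6 in WT. Gfap, the astrocyte intermediate filament, had 132 RPKM in Ogg1 KO and 138 in Mutyh KO, against 165 in DKO and 144 in WT.

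Ppp1r1b, which encodes the dopamine-regulated phosphatase inhibitor DARPP-32 and is known from striatal neurons, had 46.8 RPKM in Ogg1 KO and 44.3 in Mutyh KO, against 32 in DKO and 30.3 in WT. The striatal list as a whole did not follow it, with a median difference of 0.011. Of its 6 genes compared, Ppp1r1b among them, 2 were higher (19.0% of all genes compared) and 3 lower (15.9%). Peg3, an imprinted zinc finger gene, had 46.4 RPKM in Ogg1 KO and 46.5 in Mutyh KO, against 38 in DKO and 36.9 in WT. Its 5235 and 5285 reads in the single knockouts, against 4587 in DKO and 4432 in WT, gave the ratio of the nearest libraries a counting interval of 1.17 to 1.27; Peg3 was chosen after its values were seen.

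Immediate early genes, which neurons transcribe within minutes of activity, lay above in 8 of 25 (19.0% of all genes compared) and below in 2 (15.9%), with a median difference of 0.203 and no gap of 1.2-fold. Tiparp, an ADP-ribosyltransferase induced by the aryl hydrocarbon receptor, had 5.71 RPKM in Ogg1 KO and 6.26 in Mutyh KO, against 4.88 in DKO and 4.69 in WT. Nr4a1, an orphan nuclear receptor, had 31.1 RPKM in Ogg1 KO and 33.4 in Mutyh KO, against 23.1 in DKO and 28.4 in WT. Nr4a2, a related receptor, had 23.5 RPKM in Ogg1 KO and 23.1 in Mutyh KO, against 19.2 in DKO and 21.1 in WT. WT was the lowest library for Tiparp and DKO the lowest for both receptors. Fos, the AP-1 subunit, had 6.78 RPKM in Ogg1 KO and 9.49 in Mutyh KO, against 3.08 in DKO and 6.58 in WT. Arc, the activity-regulated cytoskeletal gene, had 55.8 RPKM in Ogg1 KO and 58.5 in Mutyh KO, against 33.5 in DKO and 57.7 in WT; its pairs overlapped. For Fos and Arc, both chosen after their values were seen, DKO was the lowest library. The list's sum was 510 RPKM in Ogg1 KO and 546 in Mutyh KO, against 427 in DKO and 518 in WT. By this sum DKO alone was low, and WT lay between the single knockouts.

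**Figure D3:**
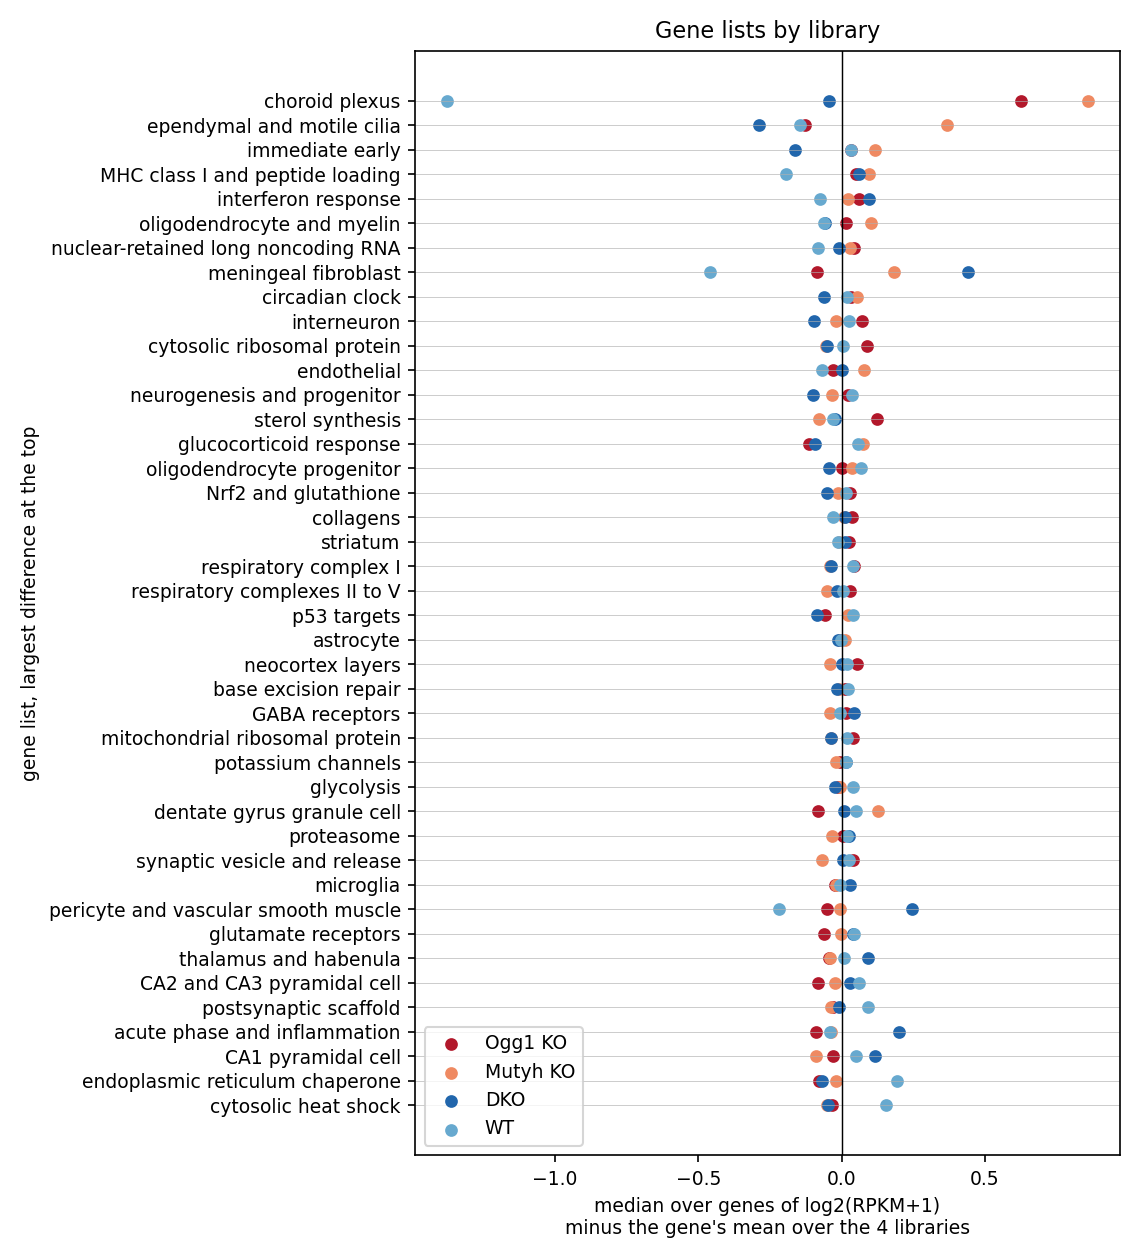
For each gene list with at least 5 genes compared, the median over its genes of log2(RPKM+1) minus the gene's mean over the 4 libraries (horizontal axis), 1 point per library. The choroid plexus list spreads widest, with both single knockouts right of DKO and WT; in the CA1 list both lie left of them, and in the meningeal list DKO lies farthest right.

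Among the lower genes were markers of pyramidal neurons, with small gaps. Of 12 CA1 pyramidal cell genes compared, 8 were lower in both single knockouts (15.9% of all genes compared) and 1 was higher. The list's median difference was -0.104, and its sum was 429 RPKM in Ogg1 KO and 409 in Mutyh KO, against 481 in DKO and 478 in WT. Gpr161, a ciliary receptor that restrains Hedgehog signalling, had 8.83 RPKM in Ogg1 KO and 8.35 in Mutyh KO, against 11.6 in DKO and 11.1 in WT. Fibcd1, a transmembrane receptor for acetylated groups, had 32.8 RPKM in Ogg1 KO and 35.2 in Mutyh KO, against 41.8 in DKO and 44.6 in WT. Crym, a thyroid hormone binding protein, had 82.4 RPKM in Ogg1 KO and 76.1 in Mutyh KO, against 91.2 in DKO and 107 in WT. Nov, a secreted CCN family protein, had 44.9 RPKM in Ogg1 KO and 40.5 in Mutyh KO, against 52.2 in DKO and 48.3 in WT. For these 4 genes the pairs did not overlap, whereas for Wfs1 and Rprm they did. Leaving out WT moved the list's median to -0.183, and leaving out Mutyh KO moved it to -0.07.

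In CA2 and CA3 pyramidal cell genes, 6 of 14 were lower (15.9% of all genes compared) and none was higher (19.0%). Bok, a member of the BCL2 family, had 16.9 RPKM in Ogg1 KO and 21.8 in Mutyh KO, against 27.6 in DKO and 30 in WT, and its gap of -0.33 was the widest among lower genes other than Mir703. Mutyh KO had 0.789 times the DKO reads per library total, with a counting interval of 0.704 to 0.883. Rgs14, a regulator of G protein signalling concentrated in CA2, had 30.9 RPKM in Ogg1 KO and 31.6 in Mutyh KO, against 35.8 in both DKO and WT. In dentate granule cell genes, 5 of 18 were lower (15.9% of all genes compared) and 1 was higher (19.0%). The list's median difference of -0.031 turned to 0.013 without WT and to 0.093 without Ogg1 KO. C1ql3, a secreted synaptic C1q-like protein, had 22.7 RPKM in Ogg1 KO and 22.5 in Mutyh KO, against 28.2 in DKO and 27.9 in WT. Calb1, the calcium buffer calbindin, had 34.3 RPKM in Ogg1 KO and 36.1 in Mutyh KO, against 39.3 in DKO and 39.1 in WT. In both of these granule cell genes DKO and WT were nearly equal. Prox1 and C1ql2 overlapped between the pairs, and so did most of that list.

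Lower genes outside the neuron lists included enzymes and regulators. Galnt9, a glycosyltransferase that starts O-linked chains, had 33 RPKM in Ogg1 KO and 32.9 in Mutyh KO, against 41.3 in DKO and 43.8 in WT. Coro1a, the actin regulator coronin, had 29.6 RPKM in Ogg1 KO and 29.9 in Mutyh KO, against 36.5 in DKO and 37.8 in WT. Cebpd, a transcription factor of the acute phase response, had 3.64 RPKM in Ogg1 KO and 4.67 in Mutyh KO, against 6 in DKO and 6.06 in WT. Lmo1, a LIM-only transcriptional cofactor, had 14 RPKM in Ogg1 KO and 13.9 in Mutyh KO, against 16.7 in DKO and 18.5 in WT. Slit3, a secreted guidance protein, had 17.4 RPKM in both single knockouts, against 20.7 in both DKO and WT. For Galnt9, Coro1a and Slit3 the single knockouts were nearly equal to each other, and for Cebpd and Slit3 so were DKO and WT. The only lower gene with a gap of at least 1.5-fold, Mir703, rested on 6 reads in Ogg1 KO and 9 in Mutyh KO, against 18 in DKO and 24 in WT, and was chosen after its values were seen.

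**Figure D4:**
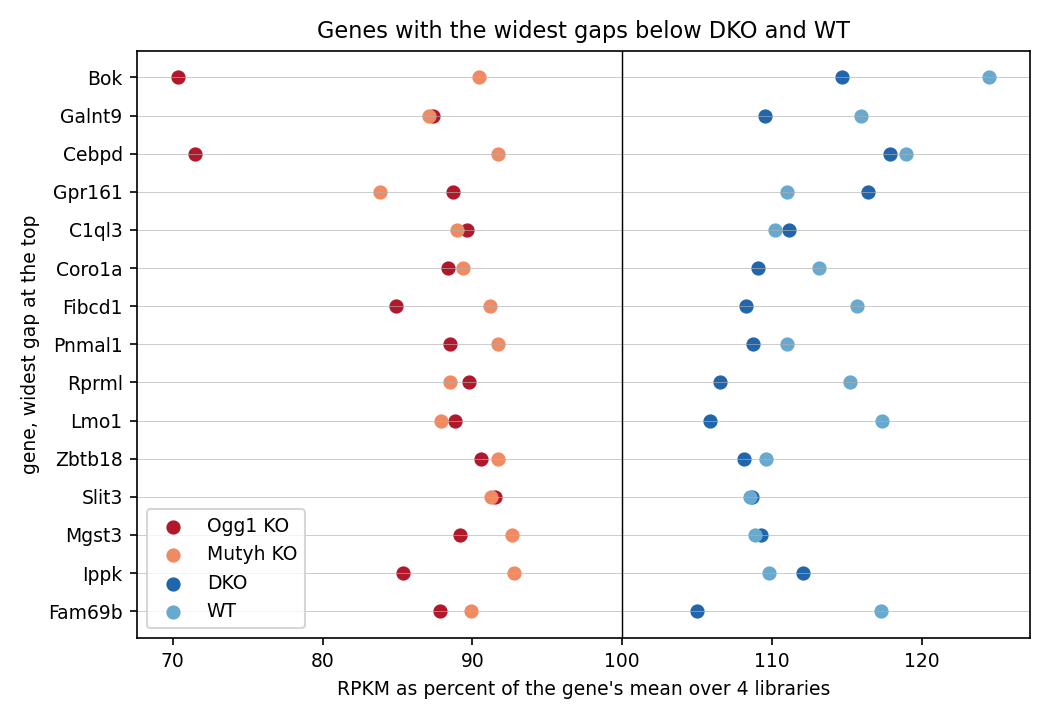
RPKM as a percent of each gene's mean over the 4 libraries for the 15 lower genes named by gap, 1 point per library. Both single knockouts lie left of the mean and DKO and WT right of it; the points spread widest for Bok and Cebpd.

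Synaptic and microglial lists held more lower than higher genes, where all genes compared split into 15.9% lower and 19.0% higher with library totals and into 1920 lower and 1216 higher genes with DESeq2 size factors. Of 16 postsynaptic scaffold genes, 5 were lower (8 with DESeq2 size factors) and none was higher. Shank1, a master scaffold of the postsynaptic density, had 164 RPKM in Ogg1 KO and 204 in Mutyh KO, against 226 in DKO and 232 in WT. The scaffold list's sum was 2530 RPKM in Ogg1 KO and 2593 in Mutyh KO, against 2636 in DKO and 2850 in WT. By this sum DKO lay nearer the single knockouts than WT, unlike in Shank1. Of 16 glutamate receptor genes, 5 were lower and none was higher; Gria2, the AMPA receptor subunit that limits calcium entry, had 130 RPKM in Ogg1 KO and 132 in Mutyh KO, against 147 in DKO and 135 in WT. Of 17 microglial genes, 6 were lower and 2 higher, with Tmem119, a microglial surface protein, at 8.84 RPKM in Ogg1 KO and 9.05 in Mutyh KO, against 10 in DKO and 11.8 in WT. None of these lists had a gene past the 1.2-fold gap. Cytosolic heat shock genes were lower in 6 of 17 and endoplasmic reticulum chaperones in 6 of 20, but WT alone was high: the heat shock sum was 2497 RPKM in Ogg1 KO and 2514 in Mutyh KO, against 2516 in DKO and 2900 in WT. Without WT the heat shock list's median difference of -0.111 turned to 0.010 and the chaperone list's of -0.108 turned to 0.044.

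No listed gene in the pathway of the deleted genes or the energy and protein machinery passed a 1.2-fold gap. Over all genes compared, 19.0% were higher and 15.9% lower. Of 10 other base excision repair genes compared, 1 was higher and 2 were lower, none past a 1.2-fold gap. Parp1, which senses strand breaks, had 26.9 RPKM in both single knockouts, against 28.3 in DKO and 30 in WT. Parp2, its relative, had 9.54 RPKM in Ogg1 KO and 9.86 in Mutyh KO, against 9.17 in DKO and 9.51 in WT, and was chosen after its values were seen. Of 11 p53 target genes, 1 was higher (0 with DESeq2 size factors) and none was lower. Among 35 respiratory complex I genes, 5 were higher and 8 lower, and among 73 cytosolic ribosomal protein genes, 11 were higher (7 with DESeq2 size factors) and 8 lower. Among 31 proteasome genes, 2 were higher and 8 lower (11 with DESeq2 size factors). Among 15 glycolysis genes, 2 were higher and 5 lower. In 35 of the lists no gene passed the 1.2-fold gap in either direction.

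The place of DKO between WT and the single knockouts is described here by group, and classes of this measure were set after values were seen. On a scale where 0 is WT and 1 is the mean of the single knockouts in log2(RPKM+1), the 16 choroid plexus genes with a gap of at least 1.2-fold had DKO at 0.4 to 0.74, with a median of 0.57. The other 55 higher genes had a median of 0.35, and in 19 of the 71 the DKO lay under 0.25. Rsph1, Slc7a10, Ppp1r1b and Peg3 were among those 19. Over the 248 higher genes with a gap of at least 1.1-fold (2.75% of those compared) the median was 0.16, with 84 below 0, and over the 88 lower genes with that gap (0.975%) it was 0.13, with 27 below 0. The rule keeps DKO from passing the single knockouts, so the scale is bounded on that side by the choice of genes. A minimum gap lowers this bound further, and more so for genes with smaller folds. The WT level relative to the single knockouts had a median of 0.159 in the 16 choroid plexus genes and 0.621 in the other 55. The differences between these medians of place therefore cannot be told apart from the effect of the bound.

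**Figure D5:**
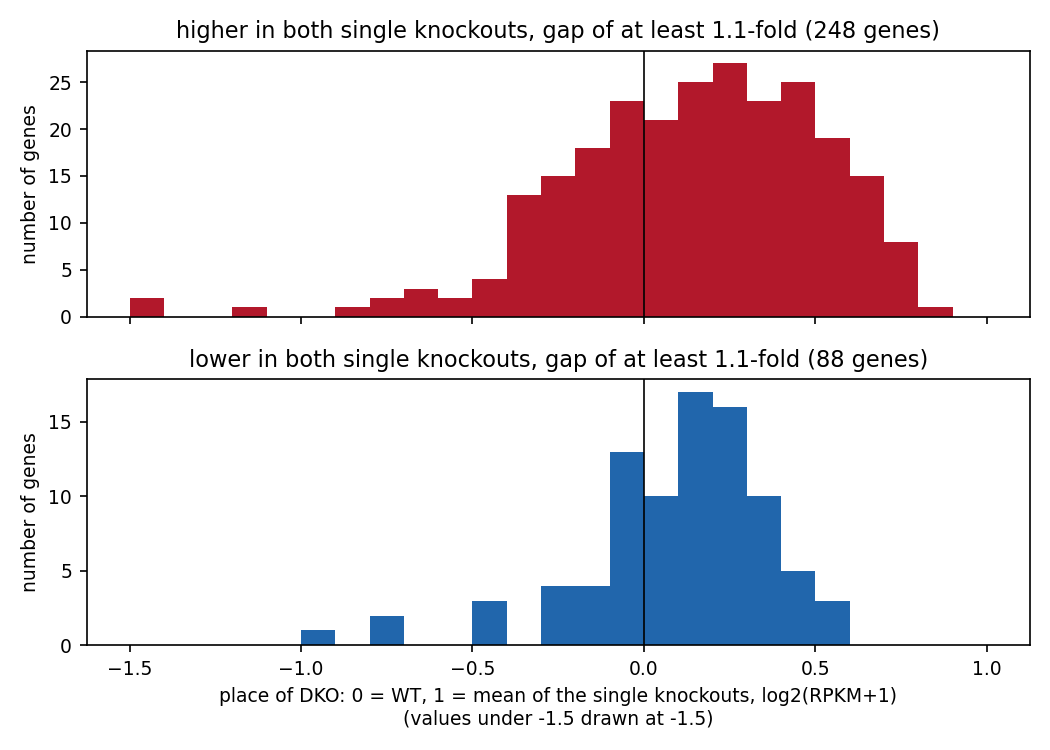
Number of genes (vertical axis) by the place of DKO on a scale where 0 is WT and 1 is the mean of the single knockouts in log2(RPKM+1), for 248 higher and 88 lower genes with a gap of at least 1.1-fold. Both distributions centre near WT, with medians of 0.16 and 0.13.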

How the data were processed

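RNA was sequenced from the hippocampus of C57BL/6 mice aged 6 months, 1 library for each of Ogg1 KO, Mutyh KO, DKO and WT. Per the file headers, the authors deposited for each gene a count of uniquely assigned reads, the gene length, the percent of the length covered by reads, and the RPKM, which divides the count by length and by the library total printed in the header. The build is mm9, per the submitters' processing notes; the aligner, counter, annotation and strandedness are not given in the sources used here, so reads of overlapping and antisense genes cannot be told apart. Library totals were 17.02 to 18.2 M reads.

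A gene absent from a library was taken as 0. Of 9367 genes with a mean of at least 5 RPKM, 318 on X, 2 on Y and 21 without a chromosome were left out. Chromosomes were looked up by gene ID in a RefSeq table of GRCm38.p6. The pseudocount was 1 RPKM. Read ratios carry exact conditional 95% intervals (Clopper-Pearson) for counting error alone. No test was run, since each genotype has 1 library. The members and the 47 gene lists were chosen with earlier results of these data known. Named genes were the 15 with the widest gap in each direction whose interval excluded 1, without clone names and small RNAs, plus up to 4 per list with at least 5 genes compared, in the direction most of the list took, and any list member with a gap of at least 1.2-fold in the other direction; every gene named outside this rule was chosen after its values were seen. Alternatives were TMM (edgeR 4.0.16) and DESeq2 1.42.0 size factors, used for scaling only, totals without ribosomal RNA, choroid plexus and blood genes, pseudocounts of 0.1 and 5, minimum RPKM of 1, 20 or none, and each library left out. Python 3.11.15, pandas 2.3.3, scipy 1.17.1 and R 4.3.3 were used, and the contrast was tested on simulated data.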

Additional observations from a re-analysis of the deposited data

Results flagged for a closer look

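For the choroid plexus and the ependymal lists, loss of either gene went in opposite directions depending on whether the other gene was intact. For a gene higher in both single knockouts the rule fixes these signs, so they restate the choice of genes. Of the genes compared, 19 of 21 in the choroid plexus list and 2 of 5 in the ependymal list were such genes. In the choroid plexus list the median log2 change with loss of Ogg1 was -0.97 where Mutyh was also lost (DKO against Mutyh KO) and 1.99 where Mutyh was intact (Ogg1 KO against WT). The median log2 change with loss of Mutyh was -0.72 where Ogg1 was also lost (DKO against Ogg1 KO) and 2.2 where Ogg1 was intact (Mutyh KO against WT). In the ependymal and motile cilia list the same changes with loss of Ogg1 were -0.66 and 0.15, and those with loss of Mutyh were -0.13 and 0.55. That list's median difference of the pairs turned from 0.375 to -0.058 without the Mutyh KO library. With 1 library per genotype these differences were not tested.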

How the results depend on the processing

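No paired analysis was possible because each genotype has 1 library and the result comes from no test. All 71 higher and 8 lower genes with a gap of at least 1.2-fold stayed on their side of both other libraries under the alternative scalings and pseudocounts. This outcome carries no evidence. A pseudocount cannot change the order of the libraries, and the TMM factors, 0.989 to 1.011, were too close to 1 to reverse such a gap. A pseudocount of 5 left 41 higher and 3 lower genes past 1.2-fold, and 9 and 0 past 1.5-fold. A minimum of 1 RPKM gave 2578 higher genes, with 152 and 24 past 1.2-fold and 31 and 4 past 1.5-fold. A minimum of 20 RPKM gave 529 higher and 734 lower genes, with 15 and 4 past 1.2-fold and 4 and 0 past 1.5-fold; 6 choroid plexus genes remained in that comparison as higher. No minimum gave 3571 and 2272, with 194 and 44 past 1.2-fold and 38 and 14 past 1.5-fold. Leaving out 1 library gives fewer conditions to meet, so counts grew: 2852 to 3561 higher and 2518 to 3241 lower genes, 147 to 317 and 37 to 124 past 1.2-fold, and 24 to 75 and 1 to 13 past 1.5-fold. The choroid plexus list's median difference of 1.505 was 1.04 with a pseudocount of 5 and 0.892 at a minimum of 20 RPKM. It was 0.864 without WT and 2.094 without DKO. The CA1 list's median difference was -0.128 with DESeq2 size factors, -0.17 at a minimum of 20 RPKM, and -0.183 to -0.07 with a library left out. Of 42 list medians, 29 changed sign under at least 1 alternative and 5 under TMM or DESeq2 scaling, those 5 being within 0.021 of 0 with library totals. Among medians of at least 0.1 in size, those that changed sign were of the ependymal list without Mutyh KO (-0.058 to 0.583 over the libraries left out), and, without WT, the heat shock list (-0.183 to 0.01) and the endoplasmic reticulum chaperone list (-0.229 to 0.044); the cause was not tested. Of the other values for lists, 836 moved little and 167 moved by more than their spread, and of those for named genes 1641 and 69. Low genes limit the contrast: Hba-a2, with 110 reads in Ogg1 KO and 95 in DKO, passed the 1.2-fold gap with a counting interval that includes 1.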

Other observations

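Immune recognition genes were summed lowest in WT. The summed level of 13 listed MHC class I and peptide loading genes was 218 RPKM in Ogg1 KO and 241 in Mutyh KO, against 216 in DKO and 182 in WT. Of the 6 that were compared 1, B2m, was higher in both single knockouts (19.0% of all genes compared). B2m, the light chain of MHC class I, had 118 RPKM in Ogg1 KO and 138 in Mutyh KO, against 109 in DKO and 95.3 in WT. Of 5 interferon response genes compared, 3 were higher in both single knockouts (19.0% of all genes compared), and 2 with TMM or DESeq2 scaling; the gap of Irf9, an interferon regulatory factor, was 0.0002. Among them Lgals3bp, a secreted galectin-binding glycoprotein, had 16.1 RPKM in Ogg1 KO and 16.7 in Mutyh KO, against 14.1 in DKO and 7.64 in WT, and its gap was 0.18 on the log2 scale.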
